A study of Homo sapiens with 12 samples.

Results

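Divergent gene pairs are protein-coding genes that sit head to head on opposite strands of a chromosome, so that 1 short stretch of DNA lies in front of both. Of 1397 such pairs with annotated starts at most 1 kb apart, 441 were kept, made of 878 genes. They were chosen by position and by measured level: both genes had a mean of at least 1 UMI (unique molecular identifier, a count of original RNA molecules) per cell in wild-type (WT) and in SCC4 KO eHAP1 cells. The same level was reached by 7436 of 20046 annotated protein-coding genes, and these serve as the comparison. Of the remaining pairs, 621 had 1 gene under the level and 335 had both under it. CELF1, TMEM258, BAG5 and DNAJB9 each stood in 2 pairs.

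A divergent promoter usually lies in a CpG-rich, nucleosome-poor region with a separate transcription start for each strand. Many such pairs join housekeeping genes of DNA repair, nucleotide synthesis, translation and mitochondria, and the arrangement is old in vertebrate genomes. Partners may be switched on together because the DNA in front of them opens as a unit, yet each start fires its own RNA in bursts. In single haploid cells the question is whether the molecules of the partners go up and down together from cell to cell, and whether a genotype or a cell line moves them together.

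The cells were eHAP1, a haploid human line that descends from the chronic myeloid leukaemia line KBM-7, kept haploid with 10-Deacetylbaccatin-III. The WT cells came from a clonal population, and the SCC4 KO cells from clonal expansion after Cas9 and a crRNA against SCC4 (official symbol MAU2), a loader of cohesin onto chromatin. Live cells were sorted in G1 by DNA content and size and profiled by LAST-seq, which joins a T7 promoter to the poly(A) end of each RNA and transcribes the RNA itself. Each genotype was 1 deposited sample of 2 batches, with 73 and 75 WT cells and 77 and 76 KO cells. The median total was 89891 and 143765 UMIs per cell in the WT batches and 81736 and 152295 in the KO batches, and 1 WT cell held 925612. Of 78 cell barcodes, 67 were used in all 4 batches, so that a barcode names a well position and not a cell. With 1 sample a genotype there was no test between genotypes, clone and genotype cannot be told apart, and the batches are the only measure of spread. Fewer cells of a state and less RNA per cell cannot be told apart in sums over cells. HEK293T, a human embryonic kidney line, was measured by LAST-seq in 2 samples of 10 cells each.

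MAU2 itself belongs to a divergent pair, with SUGP1 on the other strand. MAU2 stood at 44.3 and 41.2 UMIs per 1e6 (CPM) in the WT batches and at 9.18 and 14.5 CPM in the KO batches. The batches of the genotypes did not overlap, and MAU2 was lower in KO, as the label says, although its RNA was not absent. The crRNA, shown with its PAM in capitals, matched GRCh38 at 1 place, chr19:19338850-19338869 on the plus strand, in coding exon 5 of 19 of the canonical MAU2 transcript in GENCODE.
SCC4 crRNA: gcacacgcttgagaaggaccTGG
The predicted cut lies 18037 bases from the start of MAU2, outside the stretch it shares with SUGP1. SUGP1, which codes for a splicing-associated G-patch protein, stood at 11.5 and 11.7 CPM in WT and at 17.4 and 18.9 CPM in KO. The edited gene and its divergent partner thus lay on opposite sides of WT, and whether the promoter they share had a part in this was not tested. BCR and ABL1, the genes joined in KBM-7 cells, were detected in all 4 batches. Both were higher in HEK293T (BCR 23.2 and 18.6 CPM, ABL1 27.4 and 43.1), so their detection does not mark the line. The blood markers PTPRC and SPI1 had 0 UMIs in every batch, CD34 had 0 in WT and 7 and 11 in KO, and HBA1 stood at 42.2 and 38.9 CPM in WT and 15.2 and 15.4 in KO. The kidney lineage genes PAX2 (14.9 and 16.0, then 27.1 and 25.3 CPM), LHX1 (7.60 and 8.79, then 24.6 and 17.9) and PAX8 (0.136 and 2.36, then 5.44 and 4.71) were higher in KO in both batches. In the HEK293T samples PAX2 had 0 and 2 UMIs, LHX1 0 and 12, and PAX8 0 and 0. The part of these differences between KO and WT in the comparisons below was not tested.

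The sequences between the starts show what the partners share. For pairs whose genes do not overlap, the bases between the 2 starts of the GENCODE gene records were read from GRCh38, written 5′ to 3′ on the plus strand with the minus-strand gene at the left end and the plus-strand gene at the right end. Capitals mark exact matches, on either strand, to the 9 motifs searched. These were the CCAAT box (CCAAT), the TATA box (TATAAA), the GC box of Sp1 (GGGCGGG), the core of ETS sites (CCGGAA), an NRF1 site (GCGCATGCG), the CRE (TGACGTCA), the E box (CACGTG), the core of the SBS element (ACTACAATT) and the YY1 core (AAGATGGCG). None of these contains another, and CRE and the E box read the same on both strands. The first group holds the edited gene's pair, of which the 300 bases next to MAU2 are shown, and pairs in which 1 or both genes differed more than 2-fold between the genotypes.
SUGP1/MAU2 (chr19:19320529-19320828): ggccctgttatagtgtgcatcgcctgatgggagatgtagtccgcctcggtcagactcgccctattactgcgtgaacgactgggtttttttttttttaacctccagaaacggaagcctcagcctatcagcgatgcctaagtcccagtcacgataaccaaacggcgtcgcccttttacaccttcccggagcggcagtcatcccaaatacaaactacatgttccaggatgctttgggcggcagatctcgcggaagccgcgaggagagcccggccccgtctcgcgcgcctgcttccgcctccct
SEPTIN10/SOWAHC (chr2:109614144-109614363): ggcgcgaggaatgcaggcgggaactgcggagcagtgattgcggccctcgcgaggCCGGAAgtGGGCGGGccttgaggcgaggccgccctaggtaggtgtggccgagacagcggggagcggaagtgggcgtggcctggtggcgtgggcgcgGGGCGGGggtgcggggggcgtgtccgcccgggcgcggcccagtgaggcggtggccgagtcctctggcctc
NSUN2/SRD5A1 (chr5:6633292-6633426): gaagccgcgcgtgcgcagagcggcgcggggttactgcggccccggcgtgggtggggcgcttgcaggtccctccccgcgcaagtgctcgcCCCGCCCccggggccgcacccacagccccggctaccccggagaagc
RPUSD4/FAM118B (chr11:126211693-126211723): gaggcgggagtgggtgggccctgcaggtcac
DTYMK/ING5 (chr2:241686945-241687084): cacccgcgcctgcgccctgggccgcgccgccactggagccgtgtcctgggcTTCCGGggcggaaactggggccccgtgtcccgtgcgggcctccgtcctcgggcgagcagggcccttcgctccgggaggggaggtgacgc
CBX5/HNRNPA1 (chr12:54280134-54280192): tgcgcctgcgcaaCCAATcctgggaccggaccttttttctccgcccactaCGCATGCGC
The MAU2 stretch held none of the 9 motifs, the SEPTIN10/SOWAHC stretch 2 GC boxes and 1 ETS core, and the 59 bases of CBX5/HNRNPA1 a CCAAT box and an NRF1 match.

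The second group holds well-known pairs and pairs named below for their correlations.
PPAT/PAICS (chr4:56435616-56435740): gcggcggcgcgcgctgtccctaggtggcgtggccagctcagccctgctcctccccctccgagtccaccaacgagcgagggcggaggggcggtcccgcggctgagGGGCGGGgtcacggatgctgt
TK1/AFMID (chr17:78187234-78187357): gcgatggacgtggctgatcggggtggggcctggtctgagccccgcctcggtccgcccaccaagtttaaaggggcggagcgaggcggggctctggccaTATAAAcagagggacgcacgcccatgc
GLA/HNRNPH2 (chrX:101408013-101408221): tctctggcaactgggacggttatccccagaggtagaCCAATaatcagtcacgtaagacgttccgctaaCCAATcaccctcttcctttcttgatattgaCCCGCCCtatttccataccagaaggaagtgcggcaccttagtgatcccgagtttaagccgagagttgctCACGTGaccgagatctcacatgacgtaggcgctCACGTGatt
VPS35/ORC6 (chr16:46689519-46689642): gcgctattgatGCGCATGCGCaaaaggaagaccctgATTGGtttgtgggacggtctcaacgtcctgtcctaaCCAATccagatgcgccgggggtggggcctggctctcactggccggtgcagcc
SIRT3/PSMD13 (chr11:236932-236965): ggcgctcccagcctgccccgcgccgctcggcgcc
TK1/AFMID held the only TATAAA among the stretches shown. VPS35/ORC6 had a CCAAT box in each orientation beside an NRF1 match that reads on both strands, and GLA/HNRNPH2 had 2 CCAAT boxes, 2 E boxes and a GC box. SIRT3/PSMD13 had only 34 bases, 88.2% of them G or C, and none of the motifs.

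Across the 441 pairs, 269 had spans that did not overlap, with a median of 122 bases from start to start (quartiles 73 and 210), and 228 of them lay within 300 bases. The other 172 had overlapping 5′ ends, by a median of 416.5 bases, and 150 of these shared exon bases (median 157, at most 795). Whether the authors' counting used the strand is not given in the sources used here, so UMIs from shared exons cannot be assigned to a partner with certainty. In the 250 gaps of at least 30 bases the median GC content was 66.7% (quartiles 59.8% and 74.0%). The ATPSCKMT/CCT5 gap of 31 bases had 0%, with no G or C. Most chromosomes took part, led by chromosome 1 with 41 pairs, and 1 pair, MT-ND6/MT-CYB, lay on the mitochondrial genome, where a tRNA gene and not a promoter separates the genes.

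RefSeq promoter windows (GRCh38.p14, 250 bases before to 50 after the start) were found for 738 of the 878 genes. Partners' windows overlap, so these are not independent. The ETS core stood in 40.2% of the members' windows, in 32.0% of those of 5460 tested genes outside the pairs and in 23.1% of 15345 protein-coding windows. CCAAT stood in 42.3%, 37.2% and 36.6% in the same order, and TATAAA in 3.12%, 4.82% and 9.63%. The GC box was found in 53.5% of member windows and in 57.3% of the other tested genes' windows. NRF1 (4.88% against 4.41%), CRE (3.12% against 3.68%), the E box (11.5% against 10.8%), the SBS core (1.08% against 0.696%) and the YY1 core (5.69% against 4.87%) lay close together. These 5 stood in 2.73%, 2.64%, 8.89%, 0.482% and 2.80% of all protein-coding windows, and the GC box in 45.0%. In 337 pairs with both windows, 95 had the ETS core in both and 159 in neither, and the medians of their correlations over cells, averaged over the 4 batches, were -0.00020 and 0.0022.

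The level limit was passed most narrowly by METTL26/MCRIP2, IDH1/PIKFYVE and FBXL5/FAM200B, of which the first and second sat at the limit and the third had a lower mean of 1.01 UMIs per cell. It was missed most narrowly by APBA3/MRPL54, KIF18A/METTL15 and CHMP1A/SPATA33, each at 0.993. By distance, IDH3G/SSR4 (-996 bases, the minus sign marking overlap), NDUFAF1/RTF1 (-995) and PSMB1/TBP (995) were kept, and TXNDC12/BTF3L4 (1008), SAFB2/SAFB (-1011) and SMPD4/MZT2B (-1013) were not. Of 15 textbook pairs, 10 were members. Among the others, HSPD1/HSPE1 and RANBP1/TRMT2A have annotated starts over 1 kb apart, and SERPINI1 (with PDCD10) was under the level, with 0.324 UMIs per cell.

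By the median, divergent partners tracked each other from cell to cell about as little as genes on different chromosomes. Counting noise, given below, limits how much tracking could be seen. UMIs were scaled to each cell's total, and Spearman's rho of the partners was taken over the cells of a batch. The median over the 441 pairs was 0.0063 and -0.00033 in the WT batches and 0.0060 and 0.0037 in the KO batches. Over all 26199184 pairs of tested genes on different chromosomes, the medians were 0.0012, 0.0059, 0.0010 and 0.0021. The 2 sets lay within a few thousandths of each other, in no fixed order over the batches. Averaged over batches, the divergent median was -0.00055 in WT (quartiles -0.058 and 0.063) and 0.0024 in KO (quartiles -0.050 and 0.055). The pairs spread as widely as any pairs, with SDs of 0.086 in WT and 0.086 in KO against 0.085 and 0.082 on different chromosomes.

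**Figure D1:**
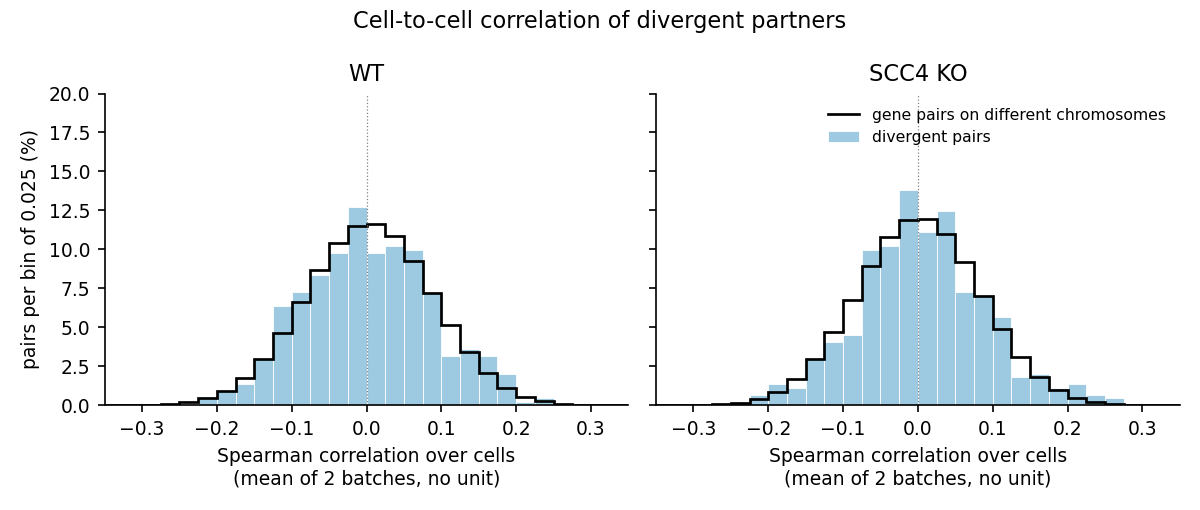
Share of pairs (percent, y axis) in bins of Spearman correlation over cells (x axis, mean of 2 batches) for the 441 divergent pairs (bars) and for all pairs of tested genes on different chromosomes (line), in WT (left) and SCC4 KO (right). Bars and line peak at 0 and have about the same width, with medians of -0.00055 and 0.0036 in WT and of 0.0024 and 0.0016 in KO.

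High values were rare. A mean rho above 0.2 was reached by 3 pairs in WT (0.680%) and by 11 in KO (2.49%), against 0.985% and 0.776% of pairs on different chromosomes. The 3 WT pairs were SIRT3/PSMD13, RHOA/TCTA and MATCAP2/ANLN, and none of the 11 KO pairs was among them. The KO pairs were SELENOF/HS2ST1, NUDT5/CDC123, SENP1/PFKM, RSRC2/KNTC1, NPC2/ISCA2, VPS35/ORC6, PPAT/PAICS, SERAC1/GTF2H5, PSMA2/MRPL32, MT-ND6/MT-CYB and TRAPPC2/OFD1. No pair was above 0.2 in both WT batches, and 2 were in both KO batches. The share of different-chromosome pairs above 0.2 in both batches was not computed, so these counts have no background. In single batches, 4.892% and 5.142% of different-chromosome pairs were above 0.2 in WT, and 4.286% and 4.504% in KO. All 4 batches were positive in 34 pairs (7.71%, background 6.72%) and negative in 20 (4.54%, background 5.85%). Across pairs, rho in 1 batch said almost nothing of rho in the other of the same genotype: Pearson's r over the 441 pairs was 0.01 in WT and 0.02 in KO, and 0.0014 and 0.0016 over the pairs on different chromosomes.

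By level, no class had medians above those of different-chromosome pairs in all 4 batches. The 24 pairs whose lower mean was at least 10 UMIs had a median rho of 0.024 in WT and 0.0069 in KO, against 0.0033 and 0.0041 for different-chromosome pairs of that level. Their batch medians were 0.066 and -0.021 in WT and 0.024 and -0.0091 in KO, and 0% of them in WT and 8.33% in KO were above 0.2, against 1.03% and 1.02%. The 190 pairs between 1 and 2 UMIs had -5.7e-05 and 0.0021. Counting noise limits these values: of the variance of a member's scaled UMIs, a median of 18.0% in WT and 18.2% in KO exceeded Poisson noise, and 87 and 82 of 878 genes had no excess. Among pairs with at least 20% excess in both genes the medians were -0.0092 (97 pairs, WT) and -0.0051 (85 pairs, KO). Above 0.2 were 1 of them in WT (1.03%) and 4 in KO (4.71%). Different-chromosome pairs with that excess had medians of 0.0026 and 0.0014, with 0.975% and 0.801% above 0.2. As a yardstick of what these cells can show, pairs of the 78 cytosolic ribosomal protein genes on different chromosomes had medians of 0.031 in WT and 0.043 in KO. Of these pairs 2.83% and 5.31% were above 0.2, and they were not matched to the members in level or counting noise.

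The highest medians were those of neighbours on the same strand. Genes on the same strand with starts within 1 kb (31 pairs) had medians of 0.052 in WT and 0.028 in KO, and 4 of 31 were above 0.2 in each genotype. Of these, 25 shared exon bases, and their medians were 0.052 and 0.0081, against 0.098 and 0.14 for the 6 that did not. The 172 same-strand pairs with starts 1 to 10 kb apart, of which 11 shared exon bases, had medians of 0.033 and 0.032, with 16 and 12 above 0.2, none of them among the 11. Opposite-strand pairs at that distance had 0.0067 and 0.00047, and tail-to-tail neighbours with ends within 1 kb had 0.0035 and 0.0027. Beyond 10 kb no class had a median above 0.01 for the mean of the batches. Divergent pairs with overlapping 5′ ends had medians of 0.014 in WT and 0.0020 in KO, and those with spans apart had -0.0073 and 0.0040.

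**Figure D2:**
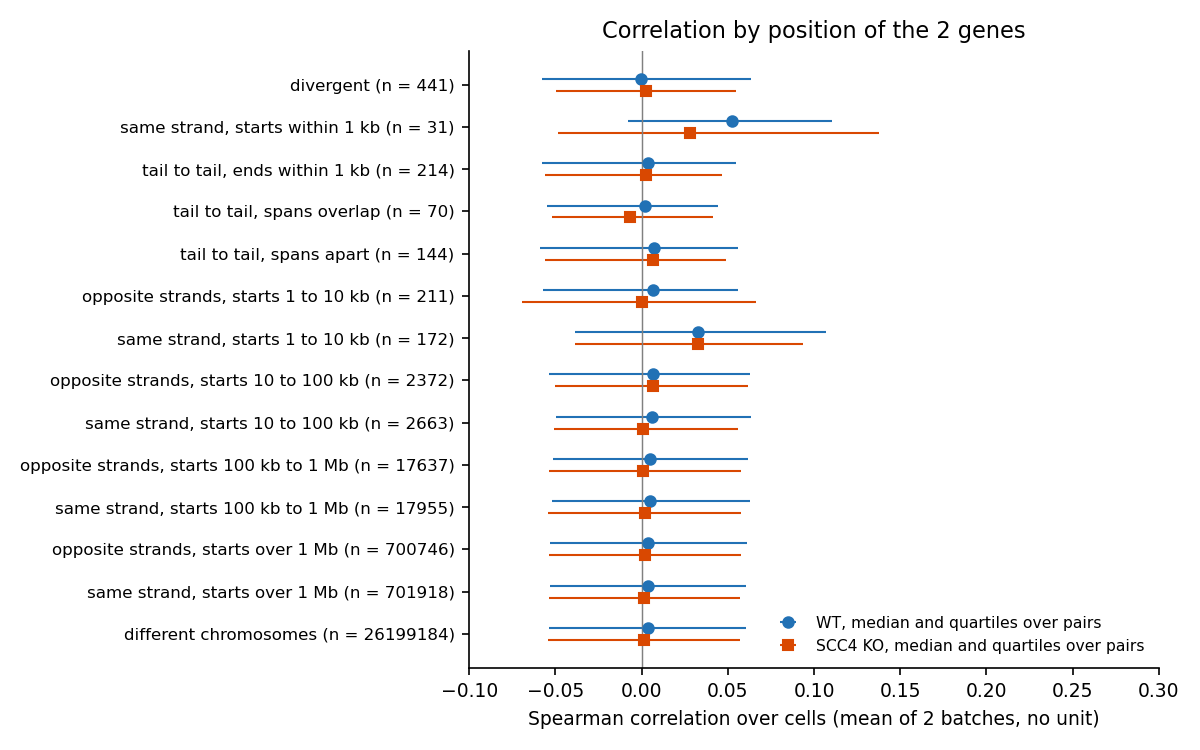
Median (points) and quartiles (lines) over pairs of the Spearman correlation over cells (x axis, mean of 2 batches), in WT (circles) and SCC4 KO (squares), by the position of the genes (y axis, number of pairs in brackets). Divergent pairs sit at 0 like pairs on different chromosomes, and the same-strand classes under 10 kb have medians of 0.028 to 0.052.

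The highest mean over the 4 batches was that of MT-ND6/MT-CYB, subunits of respiratory complexes I and III cut from mitochondrial transcripts of opposite strands, with rho of 0.28 and 0.11 in WT and 0.11 and 0.30 in KO. It was positive in every batch, but its starts do not share a nuclear promoter. EIF3H/UTP23, a translation initiation subunit and a ribosome biogenesis factor, had 0.12 and 0.14 in WT and 0.12 and 0.24 in KO, and the genes share 110 exon bases. GLA/HNRNPH2, the lysosomal alpha-galactosidase and an RNA-binding protein, had 0.18 and 0.19 in WT and 0.22 and 0.030 in KO. In WT the variance of GLA did not exceed Poisson noise (-0.27%), while 18.9% of that of HNRNPH2 did. The top 8 also held SENP1/PFKM, DHCR7/NADSYN1, GYS1/RUVBL2 and HNRNPA2B1/CBX3, and DHCR7/NADSYN1, GYS1/RUVBL2 and HNRNPA2B1/CBX3 were positive in all 4 batches. GYS1, muscle glycogen synthase, and RUVBL2, a chromatin-remodelling helicase, had 0.15 and 0.097 in WT and 0.16 and 0.12 in KO. HNRNPA2B1 and CBX3, an RNA-binding protein and a heterochromatin protein over a well-studied CpG island, had 0.080 and 0.18 in WT and 0.17 and 0.094 in KO, and share 368 exon bases.

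Among the lowest 4 were HSP90AA1/WDR20, DDX24/IFI27L1 and FAM210A/RNMT, all negative in the 4 batches. HSP90AA1, the inducible HSP90 chaperone, and WDR20, a deubiquitinase cofactor, had -0.019 and -0.11 in WT and -0.25 and -0.17 in KO, and share 197 exon bases. DDX24, an RNA helicase, and IFI27L1 had -0.18 and -0.035 in WT and -0.15 and -0.18 in KO. FAM210A/RNMT, whose spans share only 4 bases, had -0.14 and -0.092 in WT and -0.13 and -0.14 in KO. These are the extremes of 441 values and were picked for being so.

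Among the textbook pairs, which were not picked for their correlations, no mean over the 4 batches reached the top 8. PPAT/PAICS, enzymes of purine synthesis, had -0.026 and 0.016 in WT and 0.11 and 0.30 in KO, so that only the KO batches were above 0.1. GART/SON, a purine synthesis enzyme and a splicing protein, had -0.25 and -0.16 in WT and -0.011 and -0.025 in KO. NPAT/ATM, a histone gene activator and a DNA damage kinase, ranged from -0.24 to 0.12. PRKDC/MCM4, a repair kinase and a replicative helicase subunit, ranged from -0.15 to 0.099. Both GART/SON and SURF1/SURF2 (-0.13 to -0.023) were negative in all 4 batches, and ORMDL1/PMS1 was positive in all 4 (0.0044 to 0.084). UFD1/CDC45 (-0.12 to 0.043), TK1/AFMID (-0.18 to 0.067) and SARS2/MRPS12 (-0.10 to 0.18) had both signs.

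The medians of KO and WT lay close together. The median of KO minus WT was -0.0026 over the pairs and -0.0020 over pairs on different chromosomes. The differences had an SD of 0.126 between genotypes, a difference of means of 2 batches. Between batches of 1 genotype, each taken alone, the SD was 0.170 in WT and 0.168 in KO. Both KO batches lay above both WT batches in 90 of 441 pairs (background 16.3%) and below in 72 (background 17%).

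Of the 90, the largest difference was that of SELENOF/HS2ST1, a selenoprotein of the endoplasmic reticulum and a heparan sulfate sulfotransferase, with -0.19 and -0.10 in WT and 0.11 and 0.37 in KO. VPS35/ORC6, a retromer subunit and an origin recognition subunit, had -0.16 and -0.017 in WT and 0.29 and 0.24 in KO. With TRAPPC2/OFD1 (0.33 and 0.22) it made up the 2 pairs above 0.2 in both KO batches, a count without a background. RRP12/PGAM1 and ISG20L2/METTL25B followed. Of the 72, the largest was that of SIRT3/PSMD13, a mitochondrial deacetylase and a proteasome subunit, with 0.33 and 0.17 in WT and -0.097 and -0.26 in KO. Of the variance of SIRT3 and PSMD13 only 5.78% and 4.90% exceeded Poisson noise in WT, and -1.36% and 18.6% in KO. MATCAP2/ANLN, DHX57/MORN2 and ARFIP2/TIMM10B followed. The genotypes did not overlap in these 8 pairs because the rule asked for that.

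**Figure D3:**
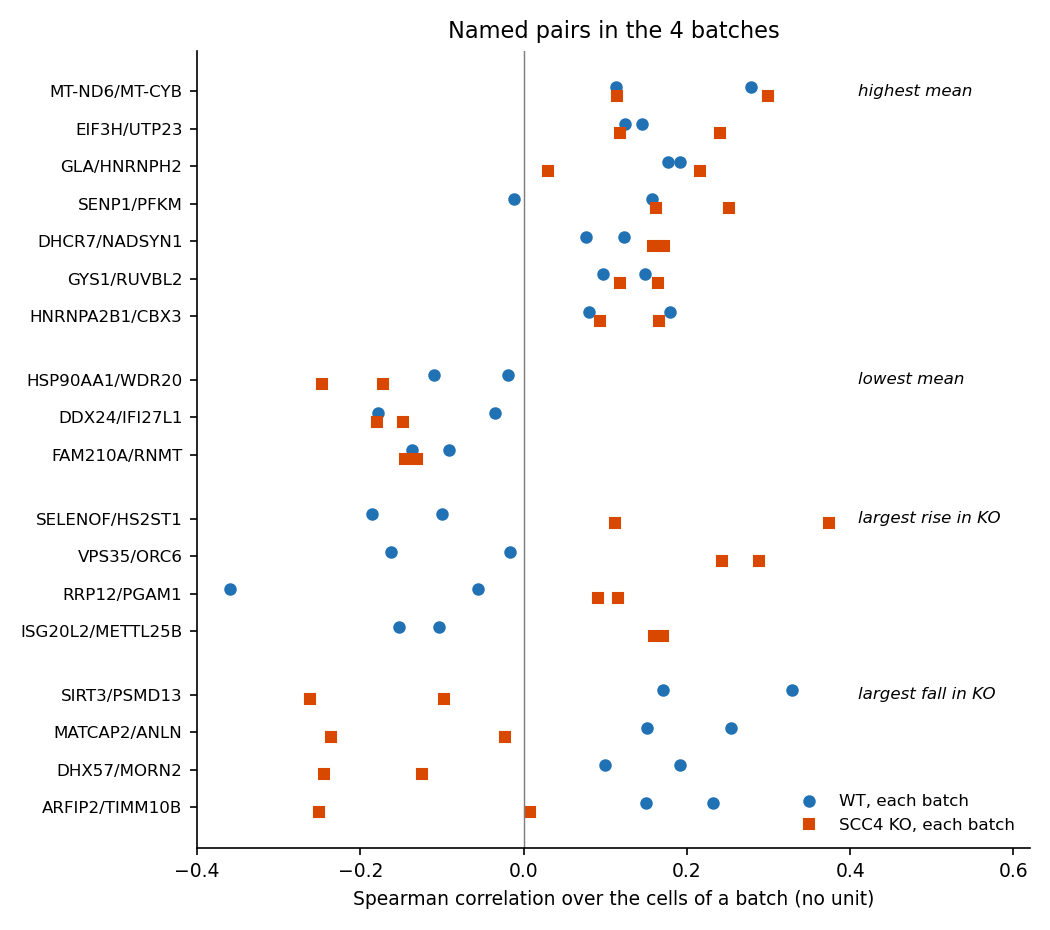
Spearman correlation over the cells of each batch (x axis) for 7 of the 8 highest and 3 of the 4 lowest pairs by the mean of 4 batches and for the 4 pairs furthest above and the 4 furthest below WT in SCC4 KO (y axis), with WT batches as circles and KO batches as squares. Batches of the same genotype often lie 0.1 or more apart, as in RRP12/PGAM1, with -0.056 and -0.36 in WT.

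Few member genes differed more than 2-fold in level between KO and WT, and most of them had a partner that did not. UMIs were summed over cells, scaled to the total and compared as log2 fold changes with 0.5 UMI added. Past 2-fold, 16 of 878 member genes were higher (1.82%, background 2.53%) and 25 were lower (2.85%, background 2.97%). In 13 and 16 of them both batch comparisons were past 2-fold in that direction. Without the second KO batch 41 members were lower. No share of all tested genes stands beside these counts, so they have no background. In the first batch comparison alone 8.66% of members and 8.75% of all tested genes passed 2-fold. In the second these were 5.47% and 6.52%. Between the batches of 1 genotype, 1.37% of member genes differed over 2-fold in WT and 1.253% in KO, against 1.41% and 1.28% of all tested genes. The 41 genes lay in 39 pairs, and in 37 of these the partner did not pass 2-fold. Passing together was rare among any member genes. Paired across chromosomes, 0.108% passed in 1 direction and 0.100% in opposite directions, against 0.454% and 0% of divergent pairs. Of these 37 partners, 17 lay on the same side as the gene past 2-fold, and their median absolute log2 fold change was 0.26, against 0.30 over all members.

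SRD5A1, a steroid 5-alpha-reductase, differed most, with 19.4 and 14.7 CPM in WT and 314 and 347 CPM in KO (log2 4.34). NSUN2, the RNA methyltransferase on the other side of a gap of 135 bases, stood at 26.9 and 27.7 CPM in WT and 20.8 and 24.3 in KO. Over both batches the exact 95% Poisson intervals, which cover counting error only, were 14.7 to 18.4 CPM in WT and 327 to 344 CPM in KO for SRD5A1. Those for NSUN2 were 25.1 to 29.8 and 20.9 to 25.4. The pair therefore held a gene many times above its WT level beside a partner that differed by a log2 of -0.24.

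ATP6V1E2, a vacuolar ATPase subunit, was the lowest against WT, with 88.7 and 84.7 CPM in WT and 11.8 and 17.4 in KO (log2 -2.48), while RHOQ, a small GTPase, differed by -0.20. UTP23 stood at 5.97 and 20.6 CPM in WT and 77.8 and 73.0 in KO (2.30), beside EIF3H at 159.6 and 161 and then 162 and 161 CPM. The WT batches of UTP23 themselves lay far apart, and both lay below the KO batches. COQ5, a methyltransferase of coenzyme Q synthesis, differed by 1.83 and RNF10, a ubiquitin ligase, by -0.02. RPUSD4, a mitochondrial pseudouridine synthase, differed by -1.77 and FAM118B, across 31 bases, by -0.02. With the edited gene MAU2 (-1.75, SUGP1 0.65) these were the 6 largest differences of 1 direction in both batch comparisons.

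Other pairs with 1 gene past 2-fold had high counts and batches close together. SON stood at 1025 and 1062 CPM in WT and 383 and 379.9 in KO, with GART at 178 and 183 and then 159.8 and 159.8. HNRNPA1, a splicing factor, was at 290.2 and 293 CPM in WT and 622 and 626 in KO, while CBX5, a heterochromatin protein, was at 242 and 247 and then 211 and 209. HNRNPA1 has many processed copies in the genome, so its counts are less certain. DTYMK, the thymidylate kinase, was at 339 and 346 CPM in WT and 133 and 131 in KO, beside ING5, a chromatin reader, at 40.9 and 38.1 and then 38.7 and 41.5. TUBA1C (log2 -1.09) and TUBA1A (-0.26) are near-identical tubulin genes whose reads the counting may have split, so that pair is uncertain. Partners lay on opposite sides of WT, with 1 of them past 2-fold, in SUGP1/MAU2, TYW5/MAIP1 (0.96 and -1.60) and UQCC6/TDG (-0.91 and 1.07), among others.

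Both genes passed 2-fold in 2 pairs, each in 1 direction (0.454%, background 0.152% of different-chromosome pairs), and in these pooled sums no pair had them past 2-fold in opposite directions. In the first batch alone 7 pairs passed in 1 direction and 3 in opposite directions, and in the second 1 and 0. The pooled count of pairs past 2-fold for both genes in either direction was 1 without the first WT or the first KO batch. It was 5 without the second WT batch and 4 without the second KO batch. No share of different-chromosome pairs stands beside these counts by batch, so they have no background. SEPTIN10, a septin, stood at 11.4 and 11.2 CPM in WT and 25.04 and 24.0 in KO (1.11). SOWAHC, an ankyrin-repeat protein, stood at 19.8 and 15.6 CPM in WT and 40.4 and 36.9 in KO (1.148). The pair was higher in KO in both batches, across a gap of 220 bases that held 2 GC boxes and an ETS core. PARP9 and DTX3L, an interferon-inducible pair whose proteins form a complex, stood at 25.5 and 17.5 and at 26.5 and 15.6 CPM in WT. In KO they stood at 9.02 and 10.3 (-1.06) and at 8.71 and 10.0 CPM (-1.04). In the second batch alone their log2 differences were -0.76 and -0.64, short of 2-fold, and the genes share 139 exon bases. CCND3, a cyclin, and TAF8, a TFIID subunit, came close, at -0.90 and -1.05.

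The direction of the difference was shared by 245 of 441 pairs (55.6%, background 50.1%). Batch by batch it was 58.0% in the first and 52.2% in the second. Among the 308 pairs whose genes each kept their direction in both batches, 174 (56.5%) shared it. Member genes paired with member genes of other chromosomes shared direction in 50.1% of 365021 cases. Tail-to-tail neighbours shared it in 55.6% of 214 and same-strand neighbours within 10 kb (starts over 1 kb apart) in 45.9% of 172. Across pairs, Spearman's rho of the partners' log2 fold changes was 0.09. The ratio of the partners differed over 2-fold between genotypes in 55 pairs (12.5%), against 14.1% of member genes paired across chromosomes. The comparison between the batches of 1 genotype gave 48.8% of pairs with a shared direction in WT and 48.1% in KO.

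**Figure D4:**
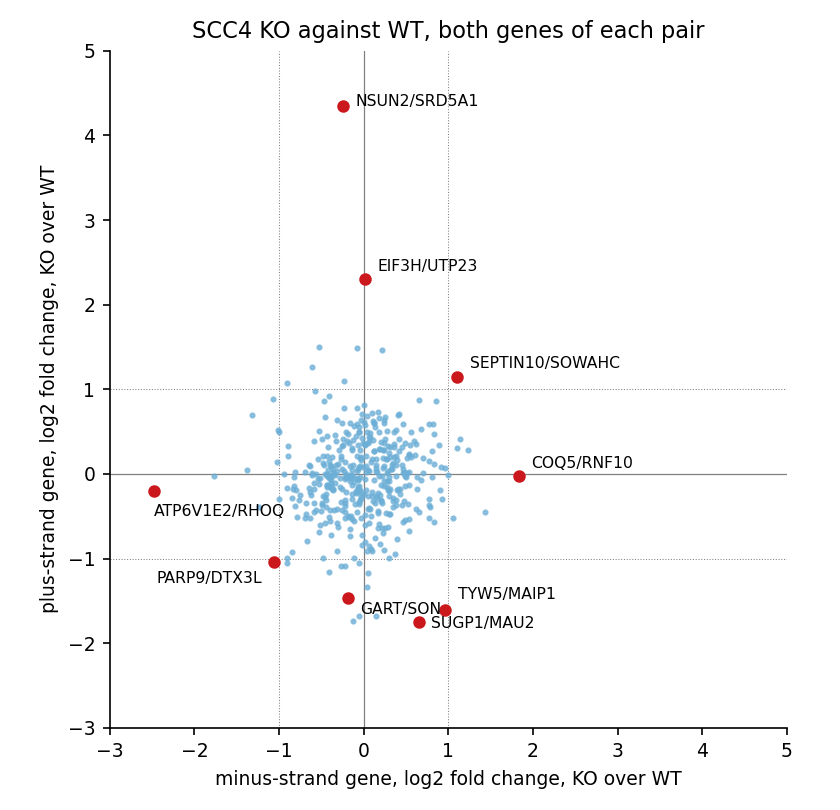
Log2 fold change of SCC4 KO over WT for the minus-strand gene (x axis) and the plus-strand gene (y axis) of each of the 441 pairs, with dotted lines at 2-fold and named pairs in red. Few genes passed 2-fold, and most large differences lie along an axis, as for NSUN2/SRD5A1 at -0.24 and 4.34. SEPTIN10/SOWAHC and PARP9/DTX3L lie in the corners past 2-fold.

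By function, the pairs took in 11.8% of all tested genes but 23.8% of the tested DNA replication and repair genes (29 of 122), 25.8% of the tRNA synthetases (8 of 31), 23.7% of respiratory chain genes (23 of 97) and 20.8% of chaperones (11 of 53). Splicing factors (16 of 89), nucleotide synthesis (6 of 36) and mitochondrial ribosomal proteins (11 of 71) were between 15.5% and 18.0%. Proteasome genes (4 of 43) and zinc finger genes (9 of 135) were below the overall share, at 9.30% and 6.67%, and none of 6 tested core histone genes was a member. MAU2 was the only member of 12 tested cohesin genes. Pairs with both genes in 1 list were NPAT/ATM, PRKDC/MCM4, HARS1/HARS2 (cytosolic and mitochondrial histidyl-tRNA synthetases, near copies of each other), PPAT/PAICS, SRSF7/GEMIN6 and ZNF394/ZKSCAN5.

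Within the lists few members passed 2-fold. TDG, a DNA glycosylase, was the only replication and repair member past it (1.07), and 11 of the 29 lay above 0. Of the 6 nucleotide synthesis members TK1 (-1.005) and DTYMK (-1.38) passed it, both lower, while PAICS (-0.72), PPAT (-0.39) and GART (-0.18) were below 0 and PFAS (0.42) above it. SON (-1.46) and HNRNPA1 (1.10) passed it among splicing members, in opposite directions, and ZNF142 (1.44) among zinc finger genes. No tRNA synthetase, respiratory chain, mitochondrial ribosomal, proteasome or chaperone member passed 2-fold. These lists held 4 to 23 members each, and over all tested genes 2.53% were past 2-fold higher and 2.97% lower. At those shares lists of this size would hold few or no such genes. The median log2 fold change of all members was -0.03 and that of all tested genes 0.03.

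Among the textbook pairs, SON and TK1 alone passed 2-fold. TK1, the thymidine kinase, stood at 333 and 342 CPM in WT and 172 and 167 in KO, and AFMID, the kynurenine formamidase, at 23.5 and 17.5 and then 17.1 and 15.5. SARS2, the mitochondrial seryl-tRNA synthetase, differed by -0.82 and MRPS12 by -0.04. PMS1, a mismatch repair protein, differed by -0.70 and ORMDL1 by 0.23, and CDC45, a helicase component, by -0.55 and UFD1 by -0.11. PPAT and PAICS were both lower in KO, at 61.6 and 60.3 and then 47.8 and 45.9 CPM and at 689 and 709 and then 428 and 425. SURF1 (-0.41) and SURF2 (0.92) lay on opposite sides, and NPAT (0.30) and ATM (-0.26) likewise.

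HEK293T cells give a wider contrast, in which line, culture, sorting and library cannot be told apart. The paper describes sorting in G1 for the eHAP1 cells, and for HEK293T only the exclusion of dead cells. The HEK293T samples also held different spike-in mixes and came from smaller pools of indexed cells than eHAP1. At least 1 UMI per cell in both HEK293T samples was found for 817 of 878 members (93.1%) and for 87.9% of all tested genes, and in 385 pairs for both genes. Against WT eHAP1, 145 members were past 2-fold higher and 110 lower, 29.0% together, with backgrounds of 15.3% higher and 16.8% lower. The HEK293T samples themselves differed over 2-fold in 12.98% of members and in 16.5% of all tested genes. Both partners passed 2-fold in 1 direction in 27 pairs (6.12%, background 5.12%, and 4.20% among member genes of different chromosomes), 14 higher and 13 lower, and in opposite directions in 19 (4.31%). In 13 of the 27 this held in each HEK293T sample, a count without a background. The direction was shared in 55.1% of pairs (background 50.5%, and 51.2% among member genes), with 52.2% and 56.9% for the HEK293T samples taken alone. Same-strand neighbours shared it more often, in 67.7% of 31 pairs with starts within 1 kb and 65.7% of 172 at 1 to 10 kb. Tail-to-tail neighbours with ends within 1 kb shared it in 51.4%. Both genes passed 2-fold in 1 direction in 6.45%, 8.72% and 4.21% of these classes. The ratio of the partners differed over 2-fold from eHAP1 in 39.7% of pairs, against 44.1% of member genes paired across chromosomes.

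PARP9 and DTX3L, lower together in the KO, were also near absent together in HEK293T. PARP9 had 1 UMI in both HEK293T samples together, 1.66% of its eHAP1 level (exact 95% interval 0.0420% to 9.32%), and DTX3L had 0, at least 19.2-fold lower against a floor of 3 UMIs over both samples.

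The ratio of the partners differed most from eHAP1 in SGCE/PEG10, where both genes were past 2-fold lower, and in ZNF836/PPP2R1A and BST2/MVB12A, where 1 was. PEG10, an imprinted retrotransposon-derived gene, had 881 and 893 CPM in eHAP1 and 0 UMIs in HEK293T, at least 868-fold lower, while SGCE, also imprinted, was at 40.2 and 43.4 CPM in eHAP1 and 21.8 and 2.65 in HEK293T. ZNF836, a zinc finger gene, had 34.2 and 33.6 CPM and then 0 UMIs, at least 33.1-fold lower, beside PPP2R1A, the scaffold of phosphatase 2A, at 86.4 and 84.8 and then 85.7 and 97.4 CPM. BST2 (tetherin), an interferon-inducible antiviral protein, had 37.5 and 33.8 CPM and then 1.40 and 0, 1.94% of its level (0.234% to 7.02%), with MVB12A, an ESCRT-I subunit, at 13.6 and 7.16 and then 13.3 and 13.9. GLA was at 41.1 and 37.9 CPM in eHAP1 and 196 and 272 in HEK293T, and HNRNPH2 at 89.1 and 85.8 and then 70.9 and 77.5.

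The 14 pairs higher for both genes in HEK293T included the following. COMMD6 and UCHL3, a ubiquitin hydrolase, with starts 44 bases apart, were higher by 1.28 and 1.69. COMMD6 was at 94.1 and 94.8 CPM in eHAP1 and 214 and 243 in HEK293T, and UCHL3 at 58.5 and 62.2 and then 174 and 216. In the KO these genes differed from WT by 0.65 and -0.45. SEPTIN10 (1.40) and SOWAHC (2.00) were also higher in HEK293T, with SOWAHC at 119 and 21.2 CPM in the samples.

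**Figure D5:**
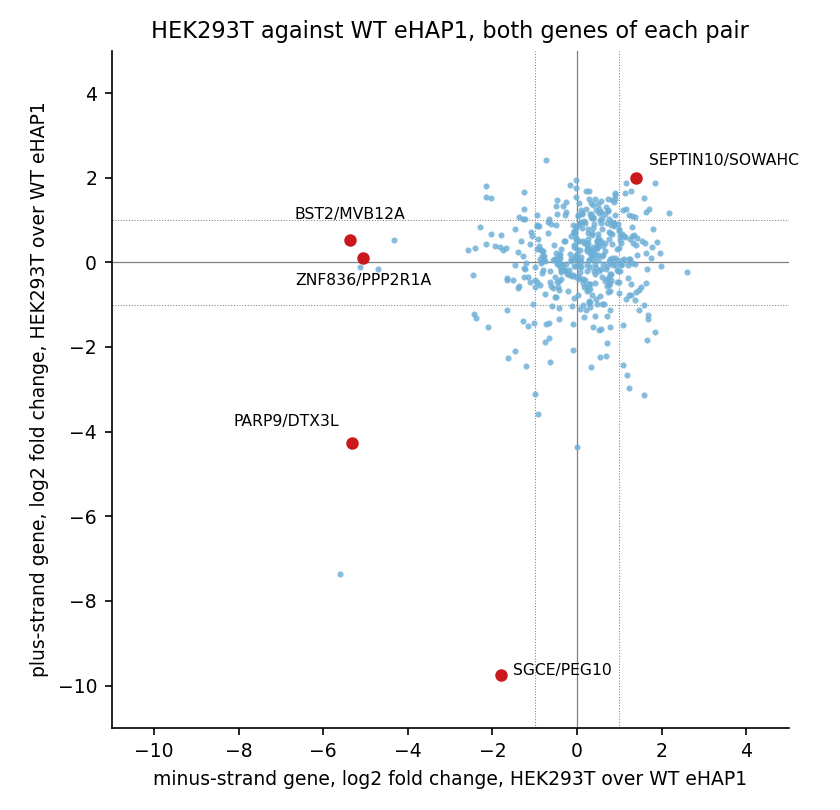
Log2 fold change of HEK293T over WT eHAP1 for the minus-strand gene (x axis) and the plus-strand gene (y axis) of each pair, with dotted lines at 2-fold and named pairs in red. DTX3L, PEG10 and ZNF836 had 0 UMIs in HEK293T and are drawn at their bounds of -4.27, -9.76 and -5.05, and PARP9/DTX3L is low for both genes.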

How the data were processed

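LAST-seq counts of UMIs per gene and cell were analysed as the authors deposited them. Per the labels and methods, the authors used bcl2fastq 2.20, cutadapt and zUMIs on GRCh38, counted exon reads and collapsed UMIs by identity. They ran ComBat-seq for another analysis, and whether it preceded deposit is not stated, which could narrow the spread between batches. Genes and starts came from GENCODE 44, a later release of the same build, matched by Ensembl ID. No cell was removed and doublets were not called. Correlations used UMIs scaled to the cell total, within batch. The comparison was with all pairs of tested genes on different chromosomes, and 1 sample a genotype allowed no test. Fold differences used UMI sums with 0.5 added. Members, lists and measures were chosen with earlier results of these data known. Named were 15 textbook pairs, the 8 highest and 4 lowest correlations, the 4 pairs furthest to each side in KO with both batches outside the WT range, pairs with both genes past 2-fold, the 6 largest differences of 1 direction, pairs nearest the limits and the 3 largest ratio differences in HEK293T; others were chosen after their values were seen. Some members that these rules name are not reported here. Scripts (Python 3.11.15, numpy 2.4.6, pandas 2.3.3, scipy 1.17.1, edgeR 4.0.16 for TMM) were tested on simulated data.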

Additional observations from a re-analysis of the deposited data

How the results depend on the processing

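The percent of pairs that shared a direction in KO against WT stayed between 52.5% and 59.4% under every alternative run. The lowest, with Ensembl canonical starts, lay nearest the main background of 50.1%. The across-pair correlation of fold differences kept its sign but not its size. It was 0.086 in the main setting, 0.021 at 5 UMIs or more, 0.029 with canonical starts and 0.130 without the second WT batch. Scaling mattered most for the correlations over cells. Without it the medians were 0.279 in WT, 0.145 in KO and -0.145 for the difference, against 0.266, 0.138 and -0.132 for pairs on different chromosomes. Thinning each cell to 50000 UMIs (72, 73, 76 and 76 cells kept) gave -0.00021 in KO and 0.0035 for the difference. Pairs on different chromosomes then had 0.00041 and 0.00027. Pearson's r of log2 values gave 0.014, 0.0056 and -0.013, against 0.012, 0.0031 and -0.0085 for pairs on different chromosomes. Leaving out cells under 100000 UMIs (26, 71, 12 and 74 cells kept) gave -0.0055 in WT and 0.010 for the difference. Different-chromosome pairs then had 0.0016 and 0.00093. For the limits, at least 2 UMIs left 251 pairs, 4 genes higher, 8 lower and 0 pairs with both past 2-fold. At least 5 UMIs left 77 pairs, 1 gene higher, 3 lower, 0 pairs with both, a KO median of 0.0045 and a difference of -0.015. Starts within 300 bases left 289 pairs, 10 genes higher, 11 lower, a KO median of -5.9e-05 and a difference of -0.012. Ensembl canonical starts gave -0.0040 in KO and -0.0088 for the difference. Spans that do not overlap left 269 pairs, 9 genes higher, 16 lower, 1 pair with both, a WT median of -0.0073 and a difference of 0.0019. Pairs without shared exon bases, an alternative chosen after seeing the data, numbered 291, 1 with both genes past 2-fold. With means over cells 4 pairs had both past 2-fold. Leaving out 1 batch gave medians of -0.00033 to 0.0063 in WT, 0.0037 to 0.0060 in KO and -0.0045 to 0.0084 for the difference, 1 to 5 pairs with both past 2-fold, and 20 to 41 genes lower. Where alternatives kept fewer pairs or cells the counts are smaller by construction, and the cause of the other differences was not tested. Batches of the same number were set side by side (58.0% and 52.2% of pairs shared a direction). No paired analysis was possible because the labels number no replicates of a genotype and no model was fitted. With 73 to 77 cells a batch, rho of the same pair differed between batches of 1 genotype with an SD of 0.170 in WT and 0.168 in KO, which limits what can be said of single pairs.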

Other observations

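Further pairs lay low for both genes in HEK293T, of which 3 are given here, chosen after their values were seen. LMNA, the nuclear lamin A/C, stood at 61.1 and 57.7 CPM in WT eHAP1 and 33.01 and 17.9 in HEK293T, and MEX3A, an RNA-binding protein, at 50.9 and 44.2 and then 7.02 and 9.94. FADS2, a fatty acid desaturase, stood at 47.5 and 44.7 CPM in eHAP1 and 9.13 and 7.29 in HEK293T. Its partner TMEM258, an oligosaccharyltransferase subunit, stood at 621 and 633 and then 308 and 235. HMGN5, a nucleosome-binding protein, differed from eHAP1 by a log2 of -2.11 and SH3BGRL by -1.53. In the SCC4 KO cells these pairs differed from WT by -0.42 for LMNA and -0.31 for MEX3A, by -0.34 for FADS2 and -0.22 for TMEM258, and by 0.03 for HMGN5 and 0.09 for SH3BGRL.

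Of member genes past 2-fold in the KO with a RefSeq window, 1 of 11 higher and 1 of 20 lower had a TATA box, and 21 of 707 others had it. The ETS core stood in 4 of 11, 5 of 20 and 288 of 707 windows in the same order. The members were also CpG-rich, with an observed over expected CpG ratio above 0.6 in 93.5% of windows, against 89.0% of other tested genes and 66.5% of all protein-coding genes.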
